A study of Mus musculus with 6 samples.

Results

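Cybb and Gsta3 are the genes examined here, 2 of the 109 genes in the deposited table of RANKL-induced bone marrow macrophages (BMMs) cultured without or with mogrol. They were chosen by gene symbol, for their redox roles, from a table that the authors had already selected on the difference between these same groups, and the pair was picked with the values of that table known. Their difference between control and mogrol-treated cells is therefore given as a description, with no test. BMMs are macrophages grown from mouse bone marrow, which turn into bone-resorbing osteoclasts when given the cytokine RANKL. Mogrol is the sugar-free core of the mogrosides, sweet compounds of the fruit Siraitia grosvenorii. All 6 libraries came from BMMs of C57BL/6 mice kept in 30 ng/ml RANKL over 5 days. The 3 control libraries had no mogrol, and the 3 mogrol libraries came from cells that also received 20 μM of the compound. By the study's methods the mice were 6 weeks old and mogrol was dissolved in DMSO. The marrow was flushed from the hind legs and first grown in the macrophage growth factor M-CSF. The methods for the sequenced cells do not say whether M-CSF was kept in the medium with RANKL. Whether the control cells of these libraries received DMSO is not stated in the sources used here, so an effect of the solvent cannot be told apart from one of mogrol. The study states, for its data in general, that they came from 3 or more independent experiments. The labels do not say whether the libraries of a group came from separate mice or cultures, so the spread between them may be technical.

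Cybb encodes gp91phox, also called NOX2, the membrane subunit of the phagocyte NADPH oxidase. It holds heme and flavin and passes electrons from NADPH across the membrane to oxygen, which makes superoxide, the burst of oxidant that phagocytes use against microbes. It works only as part of a complex. Gsta3 encodes an alpha class glutathione S-transferase, a cytosolic enzyme that joins the tripeptide glutathione to reactive compounds and so helps to clear products of oxidation. Reactive oxygen made by NADPH oxidases is also known as a messenger in RANKL signalling, whereas enzymes of glutathione conjugation belong to the defence that limits such oxidants.

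Cybb (ENSMUSG00000015340) lies on GRCm38 chromosome X, 9435252 to 9487771, minus strand, and Gsta3 (ENSMUSG00000025934) on chromosome 1, 21240589 to 21265661, plus strand. In the GENCODE M21 annotation no other gene overlaps Cybb. Gsta3 overlaps the antisense gene Gm28836 (chromosome 1, 21250359 to 21271593), but the exons of Gm28836 share 0 bases with those of Gsta3. Exact sequence shared with transcripts of other annotated genes was rare. Of the 50-base windows in the members' transcripts, 0 of 5802 for Cybb and 12 of 4389 for Gsta3 also occurred in a transcript of another gene. With 100-base windows none did for either. Alignment with mismatches, and unspliced reads of Gm28836 within Gsta3, were not examined. The nearest deposited gene to Cybb was Tspan7, 997387 bases away and lower in mogrol-treated cells, with a log2 fold change of -1.09. The nearest to Gsta3 was Col3a1, at a distance of 24.0 Mb.

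The promoters are shown because the members stand together on one side of the comparison while their upstream sequences carry different short motifs. Each is the RefSeq stretch of 250 bases before the start on GRCm38.p6, read 5′ to 3′ on the gene's own strand, chrX:9469325-9469574 for Cybb (minus strand) and chr1:21240335-21240584 for Gsta3 (plus strand). The RefSeq start of Cybb lies inside its GENCODE span, whose upstream end is set by a short coding transcript of 390 bases. Capitals mark motif matches.
Cybb: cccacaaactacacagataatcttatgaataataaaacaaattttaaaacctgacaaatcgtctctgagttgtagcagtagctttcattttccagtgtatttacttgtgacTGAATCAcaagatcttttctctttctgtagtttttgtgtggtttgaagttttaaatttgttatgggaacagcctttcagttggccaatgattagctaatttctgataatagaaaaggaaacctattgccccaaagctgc
Gsta3: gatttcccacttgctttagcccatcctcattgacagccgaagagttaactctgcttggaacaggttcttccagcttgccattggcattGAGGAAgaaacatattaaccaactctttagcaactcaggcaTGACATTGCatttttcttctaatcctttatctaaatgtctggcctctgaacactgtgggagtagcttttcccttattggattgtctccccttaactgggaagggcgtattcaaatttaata

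In Cybb the capitals mark TGAATCA, a match to the AP-1 motif TGANTCA, 139 to 133 bases before the start. In Gsta3 they mark GAGGAA, the core bound by the myeloid factor PU.1, and TGACATTGC, a match to TGACNNNGC, the core of the antioxidant response element found at many glutathione transferase genes. These matches lie 162 to 157 and 121 to 113 bases before the start of Gsta3. The window searched held 300 bases, 250 before the start and 50 from it, on both strands, and none of these matches overlap. In that window Cybb also held the PU.1 core, on the opposite strand and past its start. Neither window held TTCCNGGAA, a STAT motif. Across all 32851 promoters of the same table the share with a match was 12.4% for TGACNNNGC, 7.81% for TGANTCA and 28.3% for GAGGAA, so each match is common by letters alone. The Cybb stretch was rich in A and T, with 34.0% G and C against a median of 52.4% over all promoters, and 3.87% of promoters had less. That of Gsta3 held 42.0%.

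Library depth was even, with totals recovered from the deposited columns of 18097882 to 18652439 reads. In edgeR's quasi-likelihood fit over the 109 genes, 45 were called higher in mogrol-treated cells (41.3%) and 62 lower (56.9%), at an adjusted p-value under 0.05 and more than a 2-fold difference, and both members were among the 45. The table was selected on this contrast, so 98.2% of its genes were called and in 100% the groups did not overlap, and nothing is read from the members' calls. Scaling by TMM over the deposited genes gave 45 higher and 36 lower, and median-of-ratios scaling 45 and 8, since both centre on a set in which most genes were lower. They moved the median log2 fold change of all genes by 0.37 and 0.98.

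In control cells Cybb lay above the median of the 109 deposited genes, 2.94 FPKM, and it was higher still with mogrol. Its FPKM, which scales reads by gene length and library size, was 19.34, 14.50 and 15.34 in control replicates 1, 2 and 3, from 2081, 1571 and 1623 reads. In mogrol replicates 1, 2 and 3 it was 42.81, 41.22 and 43.45, from 4600, 4333 and 4636 reads. The groups did not overlap, and the lowest mogrol library held 2.13 times the RPM (reads scaled to library size only) of the highest control library. The mean went from 16.4 ± 2.59 to 42.5 ± 1.15 FPKM (SD, n = 3). The log2 fold change in the edgeR fit was 1.37 with a standard error of 0.085. By mean FPKM Cybb held place 20 of 109 in control cells and place 8 in mogrol-treated cells.

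Gsta3 was present at a far lower level and was also higher with mogrol. It had 1.02, 1.20 and 1.48 FPKM in control replicates 1, 2 and 3, from 82, 97 and 117 reads. With mogrol it had 4.22, 3.52 and 4.36 FPKM, from 339, 277 and 348 reads. Again the groups did not overlap, the lowest mogrol library holding 2.38 times the RPM of the highest control library. The mean went from 1.23 ± 0.232 FPKM to 4.03 ± 0.450 FPKM (SD, n = 3). This gave a log2 fold change of 1.71 and a standard error of 0.157. By mean FPKM it held place 82 of 109 in control cells and place 49 with mogrol.

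**Figure D1:**
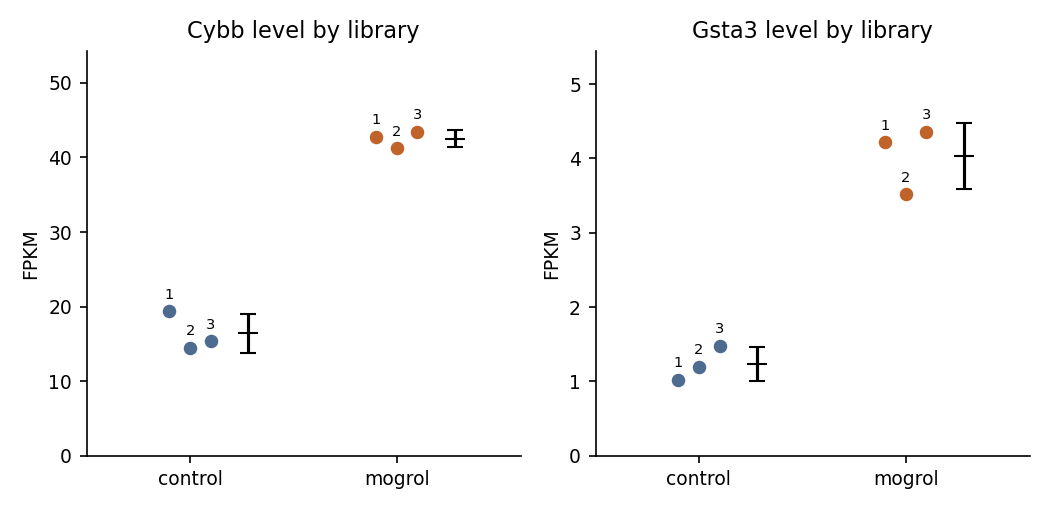
FPKM of Cybb (left) and Gsta3 (right) in each library, with the replicate number above each point and the mean ± SD of the 3 libraries as a bar beside each group. The control points of Cybb lie between 14.50 and 19.34 and its mogrol points between 41.22 and 43.45. Those of Gsta3 lie between 1.02 and 1.48 and between 3.52 and 4.36.

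Among the 45 genes called higher, whose log2 fold changes ran from 1.10 to 2.91 with a median of 1.31, Gsta3 held place 10 by fold change and Cybb place 21. Ordered by reads gained the places turn round. Cybb gained 151.6 RPM, which was 7.53% of the 2012 RPM gained by the 45 genes together and second to Lpl, with 750.1 RPM. Gsta3 gained 12.2 RPM, or 0.605% of that sum, and held place 29.

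**Figure D2:**
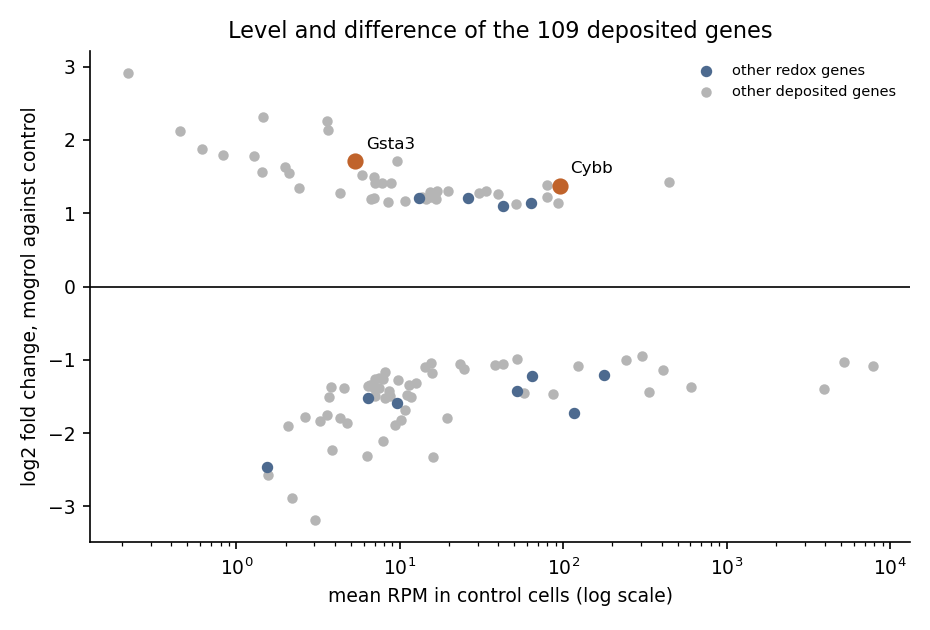
Each point is 1 of the 109 deposited genes, by its mean RPM in 3 control libraries (log scale) and its log2 fold change in mogrol-treated against control cells. Cybb, at 95.2 RPM, lies far to the right of Gsta3, at 5.35 RPM, while Gsta3 lies higher; no gene lies near 0 because the authors had selected the table for its differences.

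The comparison of levels between the members depends on gene length. The deposited lengths, 5808 bases for Cybb and 4344 for Gsta3, equal the union of all exons of each gene in GENCODE M21. For Gsta3, 61.0% of that union (2652 bases) lies outside its 3 protein-coding transcripts, in 1 retained-intron transcript of 2792 bases. For Cybb that share is 17.2%. The longest coding transcripts have 1457 bases for Gsta3 and 4752 for Cybb. If all reads came from these, Gsta3 would stand at 3.67 ± 0.691 FPKM without and 12.0 ± 1.34 FPKM with mogrol, and Cybb at 20.0 ± 3.16 and 51.9 ± 1.40 FPKM (SD, n = 3). Gsta3 then had 18.8 per 100 of Cybb in control cells, in place of 7.73 ± 2.24 by FPKM. The reads of single transcripts were not analysed here. Fold changes of reads or RPM are free of this choice, since the length is the same in every library. Those taken after a constant is added to FPKM are not.

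The ratio of the members within a library needs neither a length nor a library total. Control replicates 1, 2 and 3 had 3.94, 6.17 and 7.21 Gsta3 reads per 100 Cybb reads, and the mogrol replicates 7.37, 6.39 and 7.51. These groups overlapped, because control replicate 3 lay above mogrol replicate 2. The mean ratio was 5.77 ± 1.67 without mogrol and 7.09 ± 0.607 with it (SD, n = 3). On the log2 scale the ratio was higher by 0.34 with mogrol, which is less than the SD of 0.453 between control libraries. Without control replicate 1 that difference was 0.08, and leaving out any other library gave 0.29 to 0.52. The larger fold change of Gsta3 was thus within the spread between replicates. On log2(FPKM + 1) the order turned, with 1.17 for Gsta3 and 1.33 for Cybb. That scale depends on the gene length, and the added 1 is close to the mean of Gsta3 in control cells, 1.23 FPKM.

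**Figure D3:**
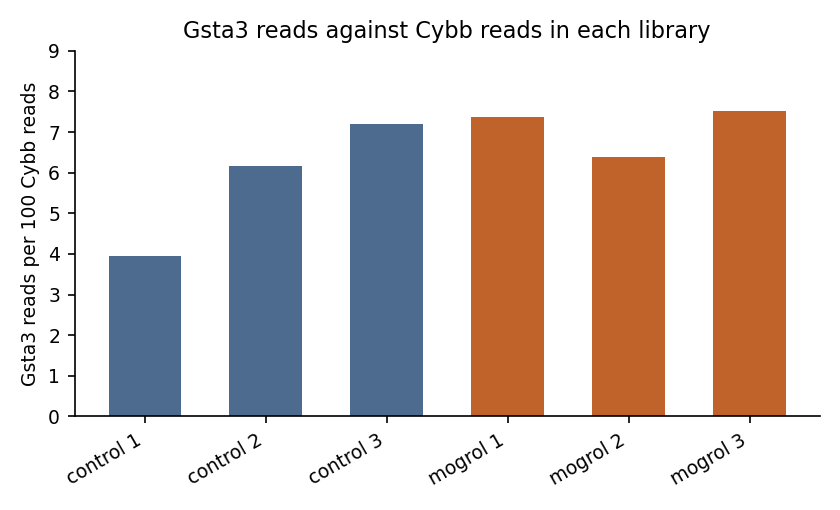
Bars give Gsta3 reads per 100 Cybb reads in each of the 6 libraries, control in blue and mogrol in orange. Control 1 is the lowest bar at 3.94, and the other 5 libraries lie between 6.17 and 7.51.

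Relative spread between control libraries was alike for the members. In control cells the SD of Cybb was 15.8% of its mean RPM, against 2.38% from counting error alone at its read numbers. In mogrol-treated cells the SD of Cybb was 2.70% of the mean, against 1.49% from counting. For Gsta3, which rested on fewer reads, the SD was 18.8% against 10.1% from counting in control cells and 11.1% against 5.58% in mogrol-treated cells. Counting error is larger for Gsta3 because of its fewer reads, so how much either gene varied beyond it is not compared between them.

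Control replicate 1 lay above the mean of the controls by 18.0% for Cybb and below it for Gsta3, at -17.3%. This library had the highest RPM of the 3 controls for 32 of the 45 genes called higher, Cybb among them, and the lowest for 35 of the 62 called lower. Gsta3 was 1 of only 6 of the 45 genes for which it was the lowest control. Without control replicate 1 the log2 fold change of Cybb was 1.51 and that of Gsta3 was 1.59. With each library left out in turn, the range was 1.29 to 1.51 for Cybb and 1.59 to 1.86 for Gsta3. The part of this library's make-up in the results was not tested.

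Of 16 NADPH oxidase genes listed, the deposited table held Cybb and Hvcn1, both called higher, as were 41.3% of all 109 genes. Cybb was chosen from this table, so nothing is read from that count. Hvcn1 encodes the voltage-gated proton channel that carries the charge left by the oxidase's electrons out of the cell. It had 4.11, 3.60 and 3.39 FPKM in control cells and 7.83, 8.86 and 8.88 with mogrol. The groups did not overlap, and its log2 fold change was 1.20 with a standard error of 0.120. Slc11a1, the metal transporter NRAMP1 of the phagosome, shares with Cybb the annotation respiratory burst. It had 18.93, 15.60 and 16.79 FPKM in control cells and 40.89, 35.00 and 36.99 with mogrol. Its log2 fold change of 1.14 had a standard error of 0.0881. In control replicate 1 both genes were highest among the controls, as Cybb was. The other 14 listed oxidase genes were not analysed here.

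Of 44 glutathione genes listed, the table held Gsta3, itself a chosen member, and Alox5ap. Both were called higher, as were 41.3% of all 109 genes, and nothing is read from that count. Alox5ap encodes FLAP, a membrane protein related to microsomal glutathione transferases that presents arachidonic acid to 5-lipoxygenase, and it is the only other deposited gene annotated with glutathione transferase activity. It had 18.40, 17.90 and 18.79 FPKM in control cells and 45.37, 37.86 and 44.54 with mogrol. The groups were apart, at a log2 fold change of 1.21 with a standard error of 0.101. Mogrol replicate 2 was the lowest mogrol library for Alox5ap and for Gsta3. This was not particular to the pair, since it was also the lowest for Cybb, Slc11a1 and Selenop, though not for Hvcn1. Of 28 antioxidant genes listed, the table held 3. Selenop, which encodes the selenium carrier selenoprotein P, was higher, from 15.0 ± 2.26 FPKM to 32.0 ± 1.18 FPKM (SD, n = 3). Its difference, 1.10 on the log2 scale, was the smallest of the 45. Akr1c18 and Aldh1a3, named below, were lower.

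Among the other redox enzymes of the table most were lower. By the gene annotation in the table, 8 of the 109 genes belonged to the oxidation-reduction process, a term that neither Cybb nor Gsta3 carries there. Hvcn1, Slc11a1 and Selenop, all called higher, do not carry it either. Of the 8 genes with the term, 7 were called lower and 1, Alox5ap, higher. Their median log2 fold change was -1.48, against 56.9% lower and a median of -1.09 over all 109 genes. With TMM, Akr1c18 (-0.83) and Acad10 (-0.85) no longer passed the 2-fold threshold, and with median-of-ratios scaling only Cyp26b1 of the 7 did, though none turned positive. On log2(FPKM + 1), P3h2 (-0.77) and Cyp26b1 (-0.29) did not pass it. Akr1c18, a steroid-reducing aldo-keto reductase, was the most abundant, and was lower with mogrol at 64.2 ± 2.51 FPKM, against 147.7 ± 8.43 FPKM without (SD, n = 3). Its log2 fold change was -1.20, with a standard error of 0.0864. Cyp2s1, a cytochrome P450, fell by 1.72 on the log2 scale (standard error 0.0927). Like Cybb it is annotated with heme binding and electron carrier activity, as is Cyp26b1, the P450 that breaks down retinoic acid. Cyp26b1 had only 28, 19 and 38 reads without mogrol and 6, 5 and 4 with it, so that its log2 fold change of -2.46 carried a standard error of 0.428. Aldh1a3, which makes retinoic acid, had a log2 fold change of -1.42. Acad10, an acyl-CoA dehydrogenase that shares flavin binding with Cybb, had -1.23. P3h2, a collagen prolyl hydroxylase, had -1.53, and Dio3, which inactivates thyroid hormone, had -1.59. The redox genes as a whole, 13 by list or annotation, divided into 6 higher and 7 lower, beside 41.3% higher and 56.9% lower over the table.

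**Figure D4:**
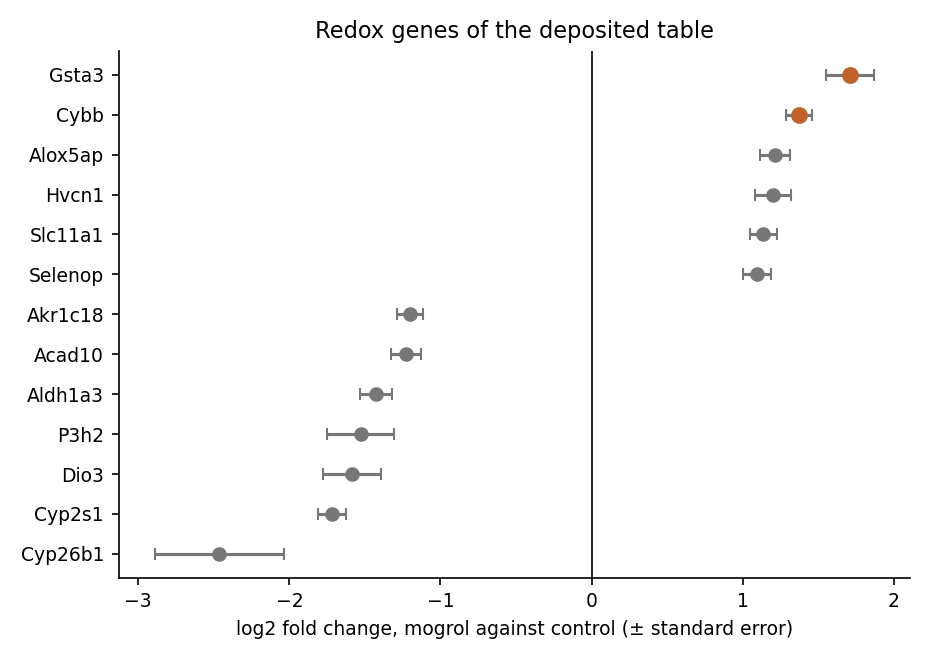
Log2 fold change in mogrol-treated against control cells, with its standard error, for the 13 deposited genes on the redox lists or with a redox annotation, with Cybb and Gsta3 in orange. Gsta3 (1.71) and Cybb (1.37) stand at the top, 4 genes lie between 1.10 and 1.21, and 7 lie between -2.46 and -1.20.

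In the table Cybb carried 8 terms for processes, 6 for places in the cell and 9 for molecular functions. Gsta3 carried 1 of each kind, metabolic process, cytoplasm and glutathione transferase activity. Cybb alone among the 109 genes was annotated with superoxide anion generation, hydrogen peroxide biosynthetic process and the NADPH oxidase complex. It shared regulation of ion transmembrane transport with Hvcn1 and the potassium channel gene Kcnk13, both higher. It shared response to nutrient with Akr1c18 and Tfrc, both lower. No term was common to Cybb and Gsta3.

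The patterns of the members were compared with those of the other 108 deposited genes by the root mean square difference of log2(RPM) over the 6 libraries, each gene centred on its own mean. The gene most like Cybb was Kcnk13, at 0.041, followed by the chemokine receptor gene Cx3cr1 (0.059), the adaptor gene Dok2 (0.065), the cannabinoid receptor gene Cnr2 (0.092) and the Toll-like receptor gene Tlr13 (0.094). All 5 had control replicate 1 as the highest control. The genes nearest to Gsta3 were farther from it. They were Spn, which encodes the leukocyte surface protein CD43 (0.149), the lipoprotein lipase gene Lpl (0.193), Radx (0.234), the inhibitory receptor gene Cd300a (0.244) and the macrophage elastase gene Mmp12 (0.251). Cybb and Gsta3 differed from each other by 0.319, which put Gsta3 at place 36 for Cybb and Cybb at place 17 for Gsta3.

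**Figure D5:**
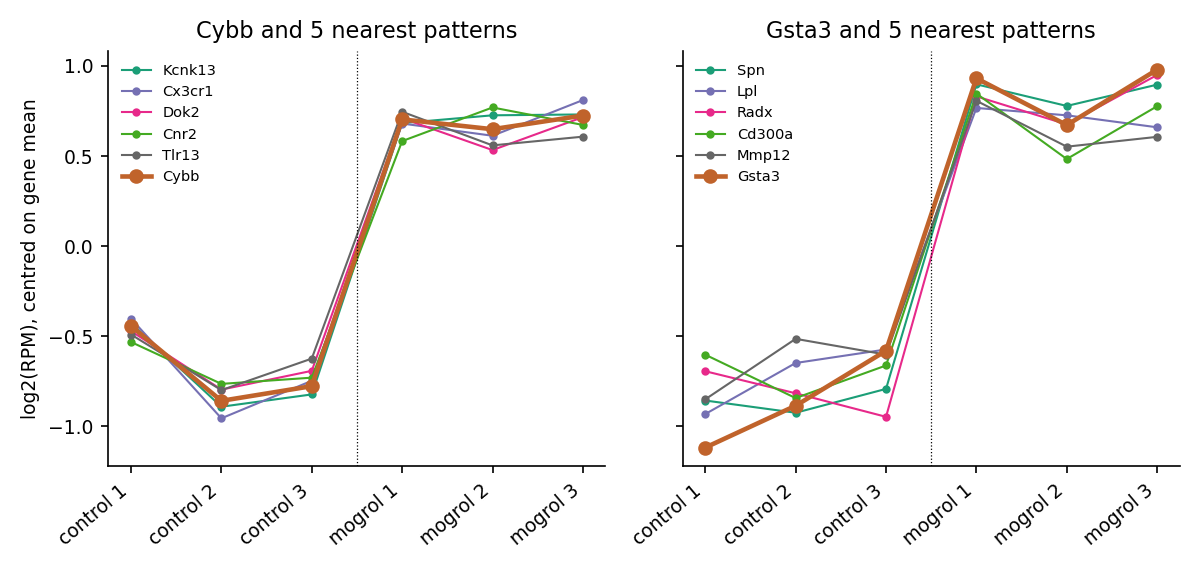
Log2(RPM) of each gene centred on its own mean, by library, for Cybb (left) and Gsta3 (right) in orange with the 5 deposited genes nearest to each; lines only join the values of a gene. The 5 genes nearest to Cybb stay close to it in every library, whereas Gsta3 lies below all 5 of its nearest genes in control 1.

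Of the marker lists, the myeloid phagocyte genes were higher with mogrol, as the members were, and osteoclast, stromal and lymphoid genes were lower. These counts stand in a table selected on this contrast, in which 41.3% of all genes were called higher and 56.9% lower, and nothing is read from them. The table held 9 of 22 listed myeloid phagocyte genes, all 9 called higher, and their summed level was 282.4 to 336.7 RPM in control and 696.6 to 776.8 RPM in mogrol libraries. It held 3 of 16 osteoclast genes, Ctsk, Ckb and Tfrc, all lower, with a sum of 16058 to 18329 RPM in control and 7461 to 8013 RPM in mogrol libraries. It held 12 of 19 stromal genes, 11 called lower, with 1669 to 1731 RPM in control and 677.1 to 734.4 RPM in mogrol libraries. Of 10 lymphoid genes it held 3, all lower, with 32.9 to 38.1 RPM in control and 14.5 to 17.5 RPM in mogrol libraries. None of these deposited markers was at 0 in any library, and the table held 0 of 11 neutrophil genes. The labelled cell type could be checked only in part, since general macrophage markers such as Adgre1, Csf1r and Cd68 were not analysed here. In bulk RNA a different number of cells of a type cannot be told apart from a different amount of RNA per cell, and the part of cell make-up in the members' values was not tested.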

How the data were processed

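RNA was sequenced from RANKL-induced BMMs in 3 control and 3 mogrol libraries. The deposited table holds raw read counts per gene and library, and FPKM values that the authors computed from counts, gene length and library total. Per the submitters' processing notes, cutadapt 1.9.1, HISAT2 2.0.1, HTSeq 0.6.1 and GRCm38 were used; use of strand is not given in the sources used here. The deposited mean normalized count is a signal averaged by the authors over DESeq2-scaled libraries, and only its implied size factors were used. The authors' own log2 fold changes with standard errors, test score and p-values were not used. By the methods the authors called genes with DESeq2 at an adjusted p-value of 0.05, and the deposited table holds significant genes only. The paper's counts of changed genes also carry a 2-fold limit in either direction. With size factors recovered from the authors' normalized counts, 45 genes were called higher and 64 lower. Significant genes with smaller differences are thus not in the table.

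Library totals were recovered from FPKM, counts and lengths within intervals of at most 71.4 reads. Counts of all 109 genes were fitted on those totals in R 4.3.3 with the quasi-likelihood test of edgeR 4.0.16, without filter or covariate. Standard errors are the log2 fold change over the square root of F. Alternatives were other size factors, TMM, DESeq2 1.42.0, limma 3.58.1 on log2(FPKM + 0.1) or log2(FPKM + 1), a 50-read filter, glmTreat, a replicate block and each library left out. The fit was tested on simulated data. Counting precision follows from the reads given for Cybb, Gsta3 and Cyp26b1. Reads of the other genes named are not printed. Genes named are the members, deposited genes of the redox lists or with redox annotation, and the 5 nearest patterns for each member; Tspan7, Col3a1 and the deposited osteoclast markers Ctsk, Ckb and Tfrc were added after their values were seen. Members and lists were chosen with earlier results of these data known. Exons and windows came from GENCODE M21, promoters from RefSeq (GRCm38.p6), which held a promoter for 81 of the 109 genes.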

Additional observations from a re-analysis of the deposited data

How the results depend on the processing

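TMM over the deposited genes gave log2 fold changes of 1.75 for Cybb and 2.08 for Gsta3 and left 36 genes lower. Median-of-ratios scaling gave 2.35 and 2.69 and left 8 lower. Limma on log2(FPKM + 1) gave 1.17 for Gsta3, whose FPKM in control cells is close to the added 1, and 1.33 for Cybb, which turns the order of the members, and left 25 genes higher and 27 lower; the cause of the change in counts was not tested. Under the other alternatives the counts stayed within 1.5 times of 45 and 62 and the members within the spread between replicates. Leaving out libraries gave 1.29 to 1.51 for Cybb, 1.59 to 1.86 for Gsta3, 0.08 to 0.52 for the log2 difference of their ratio, and 60 to 63 genes lower, with 45 higher in each fit. By FPKM in place of reads that ratio difference was 0.33. For the other redox genes and the choice of transcript length, which was added after seeing the data, 144 values stayed within the spread between replicates, 32 moved beyond it and 0 changed sign. A fit with a replicate block gave Cybb 1.38 and Gsta3 1.71, with 45 genes higher and 62 lower. No label states a pairing by number. The correlation across genes between deviations of libraries with one number was 0.084, 0.197 and 0.067, and the numbers were left unpaired. With 3 libraries a group, outlying libraries were not tested. Depth limits Gsta3, with 82 to 117 reads in control libraries.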

Other observations

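The core GAGGAA occurred in 26 of 43 promoters of deposited genes called higher (60.5%), the promoter of Gsta3 and that of Cybb among them. It occurred in 19 of 49 promoters of genes called lower (38.8%) and in 28.3% of all 32851 promoters. Some genes have more than 1 promoter in the table, the genes were selected on their difference, and no test was run. The antioxidant response element core found at Gsta3 occurred in 4 of the 43 and in 8 of the 49, against 12.4% of all promoters, and the AP-1 motif found at Cybb in 4 and in 5, against 7.81%.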
